A study of Mus musculus with 26 samples.

Results

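The genes of mitosis and the G2/M transition were followed across 8 sorted haematopoietic populations from mouse bone marrow. A list of 51 gene symbols defined them: mitotic cyclins and kinases, the chromosomal passenger complex, the spindle checkpoint, kinetochores, condensins, mitotic kinesins, spindle proteins and cytokinesis. For each symbol the probe set with the highest mean over the 26 arrays was taken, without regard to how it differed between groups. This gave 50 measured genes of the 19938 in the analysis. The remaining one, Ccnb1 (cyclin B1), has no probe set here that names it alone and so has no value.

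Most mitotic genes are silent in resting cells and in early G1. Their transcripts build up late in the cell cycle, in G2 and M phase, and are lost after division, so in RNA from a sorted population their level moves with how many of its cells are close to dividing. Repression in resting cells runs through the DREAM complex, and activation in G2 through B-Myb (Mybl2) and Foxm1, which act at a promoter element called the CHR. In adult bone marrow most haematopoietic stem cells are quiescent, while the progenitors below them divide often. Array signals come from the RNA of many sorted cells together, so a lower level cannot be told apart as fewer dividing cells or less RNA of a gene in each cell.

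All animals carried the Gata1-EGFP reporter as Tg/+ and were 8 to 15 weeks old. The reporter marks cells by activity of the gene for Gata1, a transcription factor that erythroid cells, megakaryocytes, eosinophils and mast cells need. Which fragment drives it, and whether the arrays of a group came from separate animals, are not given in the sources used here, so the p-values rest on array-to-array spread that may be technical. Stem cells without reporter signal (HSC GFP-, 3 arrays) were gated as Lin- cKit+ Sca1+ CD150+ Flt3-. Lymphoid-primed multipotent progenitors (LMPP, 4 arrays) were Lin- cKit+ Sca1+ CD150- with high Flt3 and no reporter signal. Common lymphoid progenitors (CLP, 3 arrays) were Lin- B220- Flt3+ IL-7Ra+ with low Sca1 and low cKit. The myeloid gates all started from Lin- cKit+ Sca1- CD41- cells. Pre-granulocyte-macrophage progenitors lacked FcgRII/III, CD150 and CD105 and were split by the reporter (PreGM GFP- and PreGM GFP+, 3 arrays each). Granulocyte-macrophage progenitors carried FcgRII/III and were split likewise (GMP GFP-, 4 arrays, and GMP GFP+, 3 arrays). Pre-megakaryocyte-erythroid progenitors (PreMegE, 3 arrays) had CD150 but no FcgRII/III or CD105. The PreMegE and CLP gates name no reporter. Reporter-positive HSC are not analysed here.

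All values are log2 signals, and a positive difference means that the group named first was higher. Gata1 averaged between 8.08 and 8.48 in the groups PreGM GFP+, GMP GFP+ and PreMegE and between 6.31 and 6.73 elsewhere. It thus followed the reporter in the groups whose gates name it, which those of PreMegE and CLP do not. In limma's test (adjusted p under 0.05 over all genes), 9 of 10 stem cell markers were higher in HSC GFP- than in the mean of the 7 other groups (3.50% of all genes), and 9 of 11 B lymphoid markers were higher in CLP than in LMPP (0.828%). Each list holds a gene of a gating marker, Slamf1 (CD150) and Il7r (IL-7Ra), so these counts are not fully independent of the sort. Arrays were close in median signal, 6.42 to 6.70 over all probe sets. They were less alike in spread: the interquartile range of gene signals ran from 1.70 in PreGM GFP- array 2 to 2.34 in PreGM GFP- array 1. The median of all values, 6.61, serves as a reference: Plk1, Kif20a, Kif22, Kif2c and Cdc25c lay under it in HSC GFP-, and Cdc25c also in PreGM GFP-. Signals that low were not shown to exceed background, and a difference from them is one of signal and may not equal that of the RNA.

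The promoters of these genes share sequence that the choice of members did not use. Of the 51 genes, 42 matched an entry of 250 bases before to 50 bases after the transcription start in RefSeq (build GRCm38.p6). The letters of the CHR core, TTTGAA on either strand, occurred in 33 of the 42 (78.57%), against 20.23% of 27025 mouse genes. CCAAT on either strand, the letters that the factor NF-Y recognises, occurred in 31 (73.81%), against 41.06% of all genes. Both were present in 28 members (66.67%), against 7.97%. Neither string contains the other. Within the last 100 bases before and the 50 after the start, TTTGAA was found in 71.43% of members and 9.23% of all genes. A match is a description of the letters and does not show a bound site. Neither string was in the window of Birc5, Mad2l1, Melk, Ncaph, Nuf2 or Nusap1.

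The 250 bases before the start are shown for 6 members whose signals are described below. Cdk1, Cdc20 and Top2a move with the rest of the list, Birc5 does so with neither string in its window, and Cdca5 and Cenpa are least like it. Whether either string bears on the signals was not tested. The stretches run 5′ to 3′ in the direction of transcription, and capitals mark either string or its reverse complement. Cdk1 lies at chr10:69352913-69353162 on the minus strand, Cdc20 at chr4:118437344-118437593 on the minus strand and Top2a at chr11:99024190-99024439 on the minus strand. Birc5 lies at chr11:117848987-117849236, Cdca5 at chr19:6084847-6085096 and Cenpa at chr5:30666636-30666885, all on the plus strand.
Cdk1: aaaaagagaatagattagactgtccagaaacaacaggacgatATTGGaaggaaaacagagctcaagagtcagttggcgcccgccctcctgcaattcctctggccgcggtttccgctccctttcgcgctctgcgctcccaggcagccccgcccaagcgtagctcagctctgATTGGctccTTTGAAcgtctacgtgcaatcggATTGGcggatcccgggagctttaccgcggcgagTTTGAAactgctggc
Cdc20: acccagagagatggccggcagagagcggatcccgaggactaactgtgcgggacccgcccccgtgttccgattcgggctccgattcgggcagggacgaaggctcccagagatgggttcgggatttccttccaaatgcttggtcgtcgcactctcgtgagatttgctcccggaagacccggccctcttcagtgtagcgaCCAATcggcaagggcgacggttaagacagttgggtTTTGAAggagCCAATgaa
Top2a: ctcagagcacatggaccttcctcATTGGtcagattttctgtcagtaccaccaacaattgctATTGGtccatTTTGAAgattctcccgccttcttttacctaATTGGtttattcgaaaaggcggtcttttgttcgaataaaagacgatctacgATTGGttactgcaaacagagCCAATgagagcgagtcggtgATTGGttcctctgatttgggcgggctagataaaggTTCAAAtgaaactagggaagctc
Birc5: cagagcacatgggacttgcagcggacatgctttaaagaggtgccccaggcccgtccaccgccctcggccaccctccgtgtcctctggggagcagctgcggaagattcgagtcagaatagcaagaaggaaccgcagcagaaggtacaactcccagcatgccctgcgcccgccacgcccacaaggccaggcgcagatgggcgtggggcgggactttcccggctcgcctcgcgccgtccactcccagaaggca
Cdca5: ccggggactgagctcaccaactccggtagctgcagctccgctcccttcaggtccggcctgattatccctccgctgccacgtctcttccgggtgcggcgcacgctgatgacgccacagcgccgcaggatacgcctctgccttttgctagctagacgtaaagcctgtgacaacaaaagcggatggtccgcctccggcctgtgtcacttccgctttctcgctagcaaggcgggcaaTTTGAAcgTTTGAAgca
Cenpa: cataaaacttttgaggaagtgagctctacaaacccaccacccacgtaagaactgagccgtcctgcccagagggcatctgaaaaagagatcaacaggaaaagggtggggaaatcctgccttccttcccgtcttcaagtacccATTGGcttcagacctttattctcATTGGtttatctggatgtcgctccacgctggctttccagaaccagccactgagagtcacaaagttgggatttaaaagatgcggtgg
Upstream of the start, Top2a held 6 copies of CCAAT and 2 of TTTGAA, Cdk1 held 3 and 2, and Cdc20 held 2 and 1. Cdca5 held 2 copies of TTTGAA close to the start and no CCAAT. Cenpa held 2 of CCAAT, and its TTTGAA began 17 bases after the start, outside the stretch shown.

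Mitotic expression formed a gradient over the sorted populations. As a summary, each gene's signal was set against its own mean over the 26 arrays and averaged over the 50 genes. This mean deviation was 0.64 ± 0.13 (SD, n = 3) in CLP, 0.47 ± 0.08 (n = 4) in GMP GFP-, 0.12 ± 0.35 (n = 3) in PreGM GFP- and 0.05 ± 0.31 (n = 4) in LMPP. The groups GMP GFP+, PreMegE and PreGM GFP+ followed at -0.17 ± 0.12, -0.24 ± 0.45 and -0.27 ± 0.14 (n = 3 each). HSC GFP- was lowest at -0.77 ± 0.18 (n = 3). The ranges over arrays of CLP (0.48 to 0.74) and GMP GFP- (0.37 to 0.54) overlapped. PreGM GFP- array 1, at 0.43, also lay inside the GMP GFP- range. The ranges of PreGM GFP-, LMPP, PreGM GFP+, GMP GFP+ and PreMegE overlapped as well. The HSC GFP- range (-0.97 to -0.63) overlapped PreMegE (-0.74 to 0.14) through 1 PreMegE array. Gene by gene the order was much the same: CLP had the highest group mean for 37 of the 50 genes and GMP GFP- for 11, and HSC GFP- had the lowest for 43 and PreMegE for 6.

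**Figure D1:**
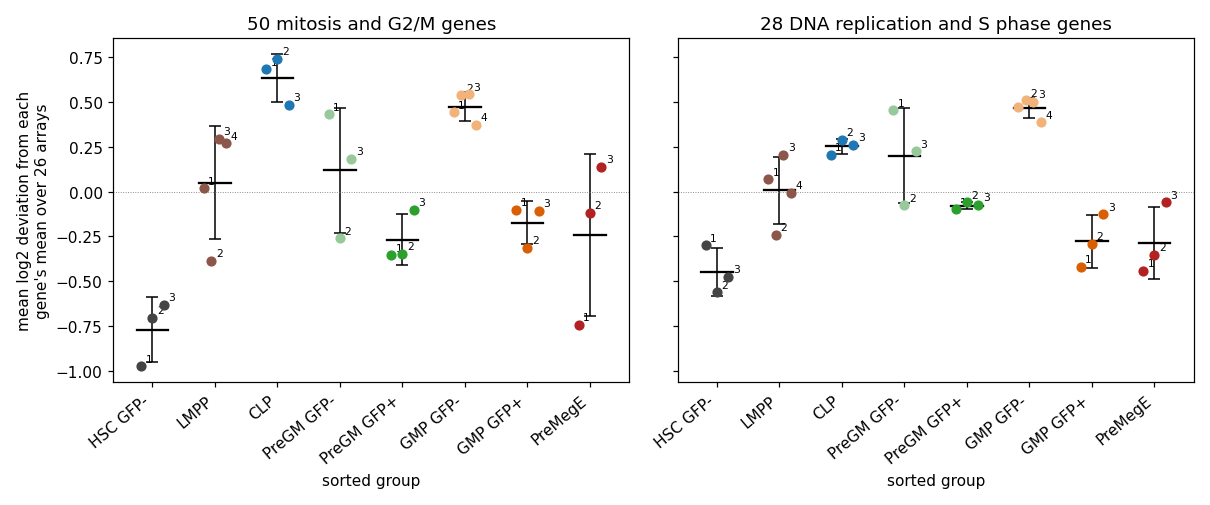
Mean log2 deviation of each array over the 50 mitosis and G2/M genes (left) and over 28 DNA replication and S phase genes (right); points are arrays with their numbers, bars are group means with SD. The 3 HSC GFP- arrays sit between -0.97 and -0.63 for the mitotic genes, CLP is highest for mitotic genes, and GMP GFP- is highest for S phase genes.

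A moderated F test in limma over the 8 groups called 39 of the 50 genes, where 15.2% of all genes were called. Those not called were Ckap2l, Ckap2, Nuf2, Cdca2, Ndc80, Cdca5, Cenpf, Melk, Cdc25c, Kif20b and Mki67. HSC GFP- against the mean of the 7 other groups gave 34 members called lower, where 2.76% of all genes were called lower, and none higher (3.50% of all genes). All 50 differences were below 0 there (49.4% of all genes), with a median of -0.82 against 0.00 for all genes. In 5 members, Ccnb2, Cdc20, Bub1b, Spc25 and Ect2, the 3 HSC GFP- arrays lay under all 23 others (0.346% of all genes). By role, the calls took in 4 of 4 passenger complex genes, 7 of 8 of spindle checkpoint and mitotic exit, 3 of 3 of cytokinesis, 5 of 7 kinesins, 3 of 4 cyclin and Cdk1 genes, 4 of 7 of chromosome structure, 3 of 6 spindle proteins, 3 of 7 kinetochore genes and 2 of 4 mitotic kinases. The count was 15 without HSC GFP- array 1 (1.98% of all genes) and 21 without HSC GFP- array 2 (1.85%). For 10 of the 34 genes the call held whichever single array was left out. Beside this difference, 9 of 13 neutrophil, 7 of 10 monocyte, 6 of 12 erythroid and 6 of 12 mast cell and basophil markers were called lower in HSC GFP-, and 1 and 2 of the last 2 lists were called higher; their part in the result was not tested.

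Leaving the stem cell gate, LMPP stood above HSC GFP- in all 50 members (40.6% of all genes) by a median of 0.78 against -0.04 for all genes. Of these, 9 were called higher, where 1.03% of all genes were: Bub1b, Cenpe, Kif11, Kif4, Ccnb2, Spc25, Top2a, Incenp and Nusap1. None was called lower (1.28% of all genes). The 4 LMPP arrays lay above all 3 HSC GFP- arrays in 22 members (4.52% of all genes). This count of calls rose to 20 (1.08% of all genes) without LMPP array 2, the lowest of its group. Without LMPP arrays 1, 3 or 4 or HSC GFP- array 1 the count was 5, 5, 4 and 3 (0.767%, 0.652%, 0.697% and 0.808% of all genes). In the other branch, CLP stood above LMPP in all 50 members (59.6% of all genes) by a median of 0.60 against 0.04 for all genes. Here 4 members were called higher (0.828% of all genes), Pbk, Ccna2, Ube2c and Aurkb, and none lower (0.747%). CLP arrays lay above all LMPP arrays in 19 members (6.70% of all genes). Without CLP array 1 or 2 the count of calls was 2 and 0 (0.562% and 0.542% of all genes). Without LMPP array 1 or 2 it was 2 and 1 (0.602% and 0.652%). Beside this difference, 6 of 10 monocyte markers were called higher in CLP, and their mean deviation spanned 0.43 to 2.09 over the 3 CLP arrays and -0.51 to -0.19 in LMPP; their part in the result was not tested.

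Within the GMP gate, mitotic signal was lower in reporter-positive cells. The difference of GMP GFP+ from GMP GFP- was below 0 in 49 of 50 members (37.5% of all genes), with a median of -0.67 against 0.08 for all genes. Called lower were 10, where 4.05% of all genes were: Incenp, Bub1b, Tpx2, Ccna2, Racgap1, Cdk1, Birc5, Top2a, Ncapd2 and Kif20a. None was called higher (3.22% of all genes). In 37 members all 3 GMP GFP+ arrays lay under all 4 GMP GFP- arrays, where 9.61% of all genes did so. Only Cenpa differed upward, by 0.11, and was not called. The count of calls was lower without any one of the 7 arrays: 6, 3, 4 and 7 without GMP GFP- arrays 1, 2, 3 and 4, and 3, 5 and 5 without GMP GFP+ arrays 1, 2 and 3. The share of all genes called lower fell too, to 3.06%, 2.65%, 2.79% and 3.75%, and to 2.45%, 2.91% and 2.81%, in the same order. Array spread moved with the same groups: the interquartile range of gene signals was 1.95 to 2.17 in GMP GFP- and 1.84 to 1.89 in GMP GFP+, and after a further quantile normalization the median difference was -0.48 with 5 members called lower (2.53% of all genes). Cell type markers moved too. Of 12 mast cell and basophil markers 9 were called higher, with a mean deviation of 2.48 to 2.71 over the GMP GFP+ arrays and -0.34 to -0.11 in GMP GFP-. Of 13 neutrophil markers 9 were called lower, with 0.16 to 0.95 against 2.09 to 3.22, of 10 monocyte markers 8 were called lower and 1 higher, and of 12 erythroid markers 8 were called higher. Their part in the mitotic difference was not tested.

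The same split of the PreGM gate leaned the same way, but limma's test called no member. PreGM GFP+ lay under PreGM GFP- in 43 of 50 members (40.9% of all genes), with a median of -0.39 against 0.04 for all genes. The test called 0 lower (1.14% of all genes) and 0 higher (0.908%), while 13 members had an unadjusted p under 0.05, all lower (5.17% of all genes). All PreGM GFP+ arrays lay under all PreGM GFP- arrays in 9 members (5.82% of all genes), namely Cdk1, Aurkb, Top2a, Kif23, Nusap1, Cdca3, Cdca8, Ncaph and Spc24, and above them in Cenpa alone (6.47% of all genes). PreGM GFP- array 2 was low for most members, and with array quality weights 10 members were called lower, where 3.32% of all genes were. The interquartile range of gene signals was 1.70 to 2.34 in PreGM GFP- and 1.89 to 1.95 in PreGM GFP+. After a further quantile normalization 0 members were called lower (1.12% of all genes). Cell type markers moved with this split as well. Of 12 erythroid markers 8 were called higher and of 12 mast cell and basophil markers 5. Of 10 monocyte markers 7 were called lower, with a mean deviation of -1.23 to -1.17 over the PreGM GFP+ arrays and 1.04 to 1.36 in PreGM GFP-, as were 5 of 13 neutrophil and 2 of 11 B lymphoid markers. Their part in the mitotic difference was not tested. Whether the reporter's difference was larger in GMP than in PreGM was tested directly, on arrays that the 2 differences do not share. No member was called lower (0.186% of all genes) or higher (0.517%), with 2 at an unadjusted p under 0.05, both lower (Anln and Cdc25c; 3.51% of all genes). The median of that contrast was -0.25, and 40 members were below 0 (45.4% of all genes).

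In 4 further comparisons between gates limma called no member. GMP GFP- stood above PreGM GFP- in 49 members (46.2% of all genes) by a median of 0.35, with none called higher (0.918% of all genes) or lower (0.471%) and 12 higher at an unadjusted p under 0.05 (4.50%). Between GMP GFP+ and PreGM GFP+ the median was 0.09, with 0 called higher (0.792%) and 0 lower (0.226%), and 0 higher (4.29%) or lower (3.16%) at an unadjusted p under 0.05. PreMegE against PreGM GFP+ gave a median of 0.02, 0 called higher (0.015%) and 0 lower (0.0502%), and 1 higher at an unadjusted p under 0.05 (1.64%). PreGM GFP- against LMPP gave 0.07, 0 called higher (0.396%) and 0 lower (0.476%), and 5 higher at an unadjusted p under 0.05 (4.91%). The sign of the last 2 medians changed when single arrays were left out.

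**Figure D2:**
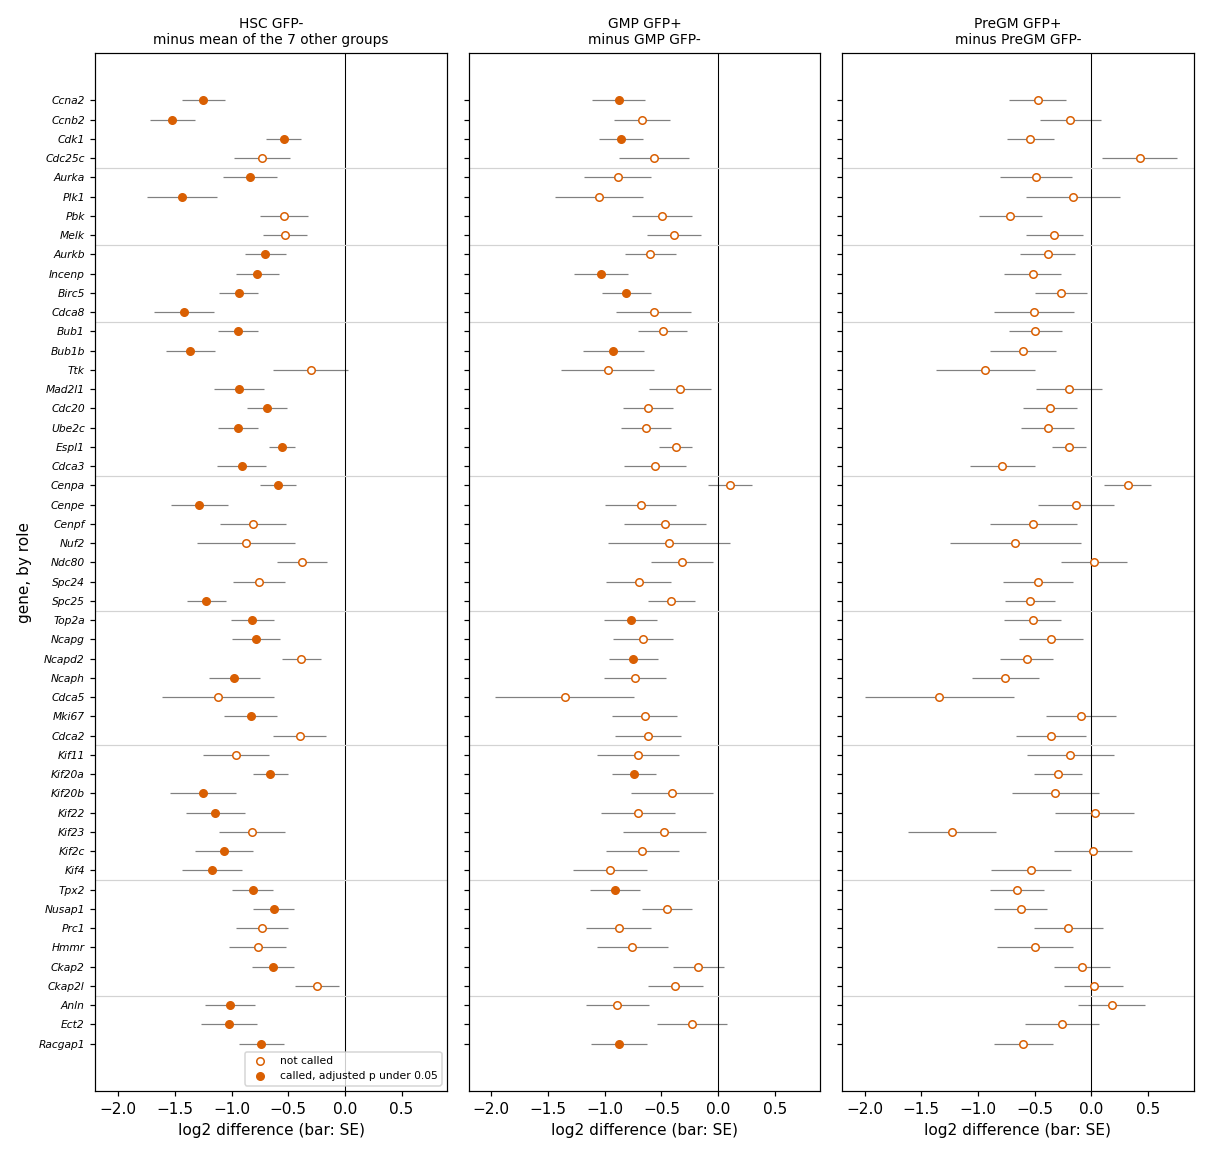
Log2 difference of each of the 50 genes, ordered by role, in 3 comparisons; points are limma estimates, bars their SE, and filled points were called at an adjusted p under 0.05. All 50 points are below 0 for HSC GFP- with 34 filled, 49 are below 0 for the reporter in GMP with 10 filled, and 43 are below 0 for the reporter in PreGM with none filled.

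Among the cyclins and their kinase, Cdk1, the catalytic partner of the mitotic cyclins, read 9.52, 9.70, 9.63 and 9.50 in the 4 GMP GFP- arrays and 8.83, 8.83 and 8.53 in the 3 GMP GFP+ arrays. The groups did not overlap, and the difference was -0.86 (SE 0.20, adjusted p = 0.00767). In PreGM GFP- it read 9.55, 9.12 and 9.11, and in PreGM GFP+ 8.47, 8.71 and 8.98, again without overlap, but the difference of -0.54 (SE 0.21, adjusted p = 0.291) was not called. CLP arrays overlapped GMP GFP- at 9.67, 9.60 and 9.28, and LMPP read 9.09, 8.37, 9.04 and 9.32, array 2 being the low one. At the low end, PreMegE, at 8.24, 8.26 and 8.96, averaged as low as HSC GFP-, at 8.56, 8.53 and 8.40. Their means of 8.49 ± 0.41 and 8.50 ± 0.09 differ by less than the spread of PreMegE.

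Ccnb2, cyclin B2, had the largest HSC GFP- difference of the list. Its signal was 8.21, 9.05 and 9.03 in HSC GFP-, and the lowest of the 23 other arrays, in LMPP, read 9.58. The difference from the mean of the other groups was -1.52 (SE 0.20, adjusted p = 2.14e-05), and LMPP, at 9.94, 9.58, 10.39 and 9.99, exceeded HSC GFP- by 1.21 (SE 0.25, adjusted p = 0.00734). Elsewhere the group means stayed between 9.91 in GMP GFP+ and 10.68 in CLP. Ccna2, cyclin A2, which acts in S phase and G2, was also low in HSC GFP- at 7.28, 8.02 and 7.78. LMPP read 8.62, 7.65, 8.77 and 8.79, where array 2 fell inside the HSC GFP- range, and CLP read 9.56, 9.77 and 9.27. The step from LMPP to CLP was 1.07 (SE 0.24, adjusted p = 0.0154). GMP GFP- read 9.42, 9.45, 9.63 and 9.18 against 8.38, 8.79 and 8.46 in GMP GFP+, a difference of -0.88 (SE 0.24, adjusted p = 0.0239) with no overlap. Cdc25c, the phosphatase that activates Cdk1, was near or under the median signal in HSC GFP- and PreGM GFP- and was not called in any comparison.

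**Figure D3:**
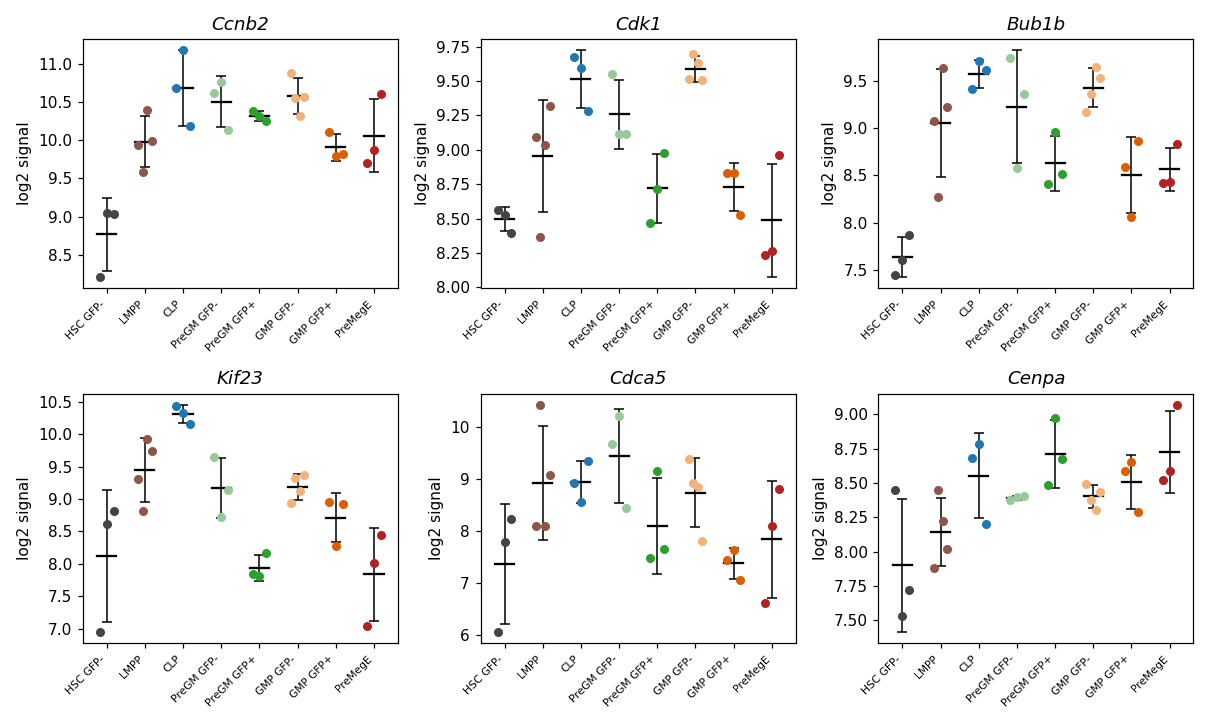
Log2 signal of 6 members in every array, by group; points are arrays and bars are means with SD. Ccnb2 and Bub1b show all 3 HSC GFP- arrays under every other array, and Cdk1 is as low in PreMegE as in HSC GFP-. Kif23 is low in PreGM GFP+ and PreMegE, and Cdca5 and Cenpa follow the common order least.

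Plk1, the polo-like kinase that drives mitotic entry and spindle assembly, was scattered in HSC GFP- and PreGM GFP-. HSC GFP- arrays read 5.45, 6.42 and 7.23 and PreGM GFP- arrays 8.56, 6.36 and 7.88, so that 1 array in each group lay more than 1 log2 unit from another. The remaining groups were tighter. GMP GFP- read 8.47, 8.20, 8.95 and 8.46, GMP GFP+ 7.43, 7.25 and 7.74, and CLP 7.94, 8.39 and 8.53. LMPP read 7.73, 6.89, 7.69 and 7.57, PreGM GFP+ 7.34, 7.37 and 7.59 and PreMegE 7.48, 7.91 and 8.22. HSC GFP- was lower than the mean of the other groups by -1.44 (SE 0.31, adjusted p = 0.00491), with the limit that this level is under the median signal. GMP GFP+ lay wholly under GMP GFP-, but the difference of -1.05 (SE 0.39, adjusted p = 0.107) was not called. Pbk, a mitotic MAPK-like kinase, read 9.20, 9.87 and 9.60 in CLP and 8.48, 7.62, 8.93 and 8.56 in LMPP, without overlap, and rose by 1.16 (SE 0.26, adjusted p = 0.0195). Its lowest mean was in PreMegE, 7.74 ± 0.24. Aurka, the kinase of centrosomes and spindle poles, was called in the F test and, among the comparisons between groups, in the HSC GFP- contrast alone, at -0.83 (SE 0.24, adjusted p = 0.0366). Melk was called in none.

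The chromosomal passenger complex corrects the attachment of chromosomes to the spindle and consists of the kinase Aurkb with Incenp, Birc5 (survivin) and Cdca8 (borealin). Aurkb read 9.28, 9.76 and 9.31 in CLP, 9.01, 9.20, 9.13 and 9.19 in GMP GFP- and 8.85, 8.68 and 8.77 in PreGM GFP-. It was lower in LMPP at 8.50, 7.87, 8.86 and 8.71, in GMP GFP+ at 8.64, 8.32 and 8.65 and in PreGM GFP+ at 8.03, 8.43 and 8.68. PreMegE spanned 7.46, 8.29 and 8.53, and HSC GFP- 7.77, 8.10 and 8.09. CLP was above LMPP by 0.96 (SE 0.22, adjusted p = 0.0248), with all arrays apart. Incenp, the scaffold of the complex, gave the largest called reporter difference of the list in GMP, from 8.93, 8.93, 8.99 and 9.32 to 7.69, 7.94 and 8.41. That difference was -1.03 (SE 0.24, adjusted p = 0.00841), and array 4 of GMP GFP- stood above its 3 companions. Birc5 fell there by 0.81 on the log2 scale (SE 0.22, adjusted p = 0.0235). Cdca8 read 6.55, 8.21 and 7.38 in HSC GFP- and 7.26, 8.11 and 8.63 in PreMegE, the most scattered groups for this gene, and was at least 8.42 in every GMP and PreGM array. HSC GFP- differed from the other groups by -1.42 (SE 0.26, adjusted p = 0.00129).

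In the spindle checkpoint, which holds cells in mitosis until every chromosome is attached, Bub1b (BubR1) separated HSC GFP- from all else. HSC GFP- arrays read 7.44, 7.60 and 7.86, under all 23 others. LMPP read 9.08, 8.27, 9.64 and 9.23, CLP 9.42, 9.71 and 9.61, and PreGM GFP- 9.75, 8.58 and 9.37. PreGM GFP+ read 8.41, 8.96 and 8.52, PreMegE 8.43, 8.43 and 8.83, GMP GFP- 9.17, 9.36, 9.65 and 9.53 and GMP GFP+ 8.58, 8.06 and 8.86. LMPP exceeded HSC GFP- by 1.42 (SE 0.27, adjusted p = 0.00346), a call that held whichever single array was left out, as did that of Spc25. GMP GFP+ was lower than GMP GFP- by -0.93 (SE 0.27, adjusted p = 0.0385), and that call was lost without some single arrays. Cdc20, the activator of the anaphase-promoting complex, behaved alike. HSC GFP- arrays read 7.02, 6.99 and 7.09, close together and under every other array, and LMPP read 7.37, 7.63, 7.70 and 7.56. GMP GFP- read 7.92, 7.99, 8.63 and 8.34, GMP GFP+ 7.84, 7.40 and 7.57, CLP 7.86, 8.31 and 7.87 and PreMegE 7.18, 7.27 and 7.86. PreGM GFP- spread widely, at 8.30, 7.16 and 7.91, around PreGM GFP+ at 7.46, 7.17 and 7.63. Of these, the HSC GFP- difference was called, -0.69 (SE 0.18, adjusted p = 0.0183). Ube2c, the ubiquitin-conjugating enzyme of the same complex, read 8.64, 8.85 and 8.76 in CLP against 7.78, 7.47, 7.68 and 8.19 in LMPP and rose by 0.97 (SE 0.22, adjusted p = 0.0211). Espl1 (separase) and Mad2l1 were called lower in HSC GFP- alone among the comparisons between groups, by -0.55 and -0.93, and Ttk was called in no comparison between groups.

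At the kinetochore, Cenpe, a motor that carries chromosomes to the spindle equator, read 7.18, 7.84 and 7.46 in HSC GFP- and 8.77, 8.57, 9.01 and 9.22 in LMPP. The groups were apart, and the difference was 1.40 (SE 0.31, adjusted p = 0.0145). PreGM GFP- held both a low and a high array for it (8.93, 7.62 and 9.24), and CLP was even at 9.45, 9.22 and 9.22. Of the Ndc80 complex, which binds microtubules, Spc25 rose from HSC GFP- to LMPP by 1.16 (SE 0.21, adjusted p = 0.00215), while Ndc80 and Nuf2 were not called in any comparison between groups. Cenpa, the histone variant that marks the centromere, did not follow the list. Its arrays read 8.45, 7.54 and 7.72 in HSC GFP-, 7.88, 8.45, 8.22 and 8.02 in LMPP, 8.68, 8.78 and 8.20 in CLP and 8.38, 8.40 and 8.40 in PreGM GFP-. PreGM GFP+ read 8.48, 8.98 and 8.68, GMP GFP- 8.50, 8.38, 8.30 and 8.44, GMP GFP+ 8.59, 8.65 and 8.29 and PreMegE 8.52, 8.59 and 9.07. It was highest on average in PreMegE and PreGM GFP+, groups low for most members, and PreGM GFP+ lay wholly above PreGM GFP-, though the difference of 0.32 (SE 0.21, adjusted p = 0.678) was not called. HSC GFP- was nevertheless lower than the mean of the other groups, by -0.59 (SE 0.15, adjusted p = 0.0212).

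Among the genes of chromosome structure, Top2a, the topoisomerase that untangles sister chromatids, has 2 probe sets, with means of 10.51 and 4.97 over the arrays; the brighter one is used. It read 11.37, 11.26 and 11.08 in CLP, 10.76, 11.05, 10.99 and 10.75 in GMP GFP-, 10.70, 10.52, 11.07 and 11.11 in LMPP and 10.85, 10.40 and 10.89 in PreGM GFP-. It read 10.19, 10.08 and 10.31 in PreGM GFP+, 10.31, 9.82 and 10.22 in GMP GFP+ and 9.42, 9.88 and 9.99 in HSC GFP-. PreMegE held 1 array far below the others (9.21, 10.39 and 10.57). The reporter difference in GMP was -0.77 (SE 0.24, adjusted p = 0.0486), close to the threshold, and LMPP exceeded HSC GFP- by 1.08 (SE 0.24, adjusted p = 0.0115). Over 16 alternatives, which include the mean of both probe sets, the GMP difference ran from -0.87 to -0.22 and was called in 6. Its adjusted p in limma reached 0.650, and the call was lost whichever of the 7 GMP arrays was left out. For LMPP against HSC GFP- the difference ran from 0.52 to 1.20 and was called in 14 of 16 alternatives. Mki67, which encodes the proliferation antigen Ki-67, gave 8.90, 9.13 and 9.09 in HSC GFP-, 9.79, 9.45, 10.26 and 10.19 in LMPP, 10.46, 10.21 and 10.37 in CLP and 10.08, 10.20, 10.31 and 10.16 in GMP GFP-. GMP GFP+ read 9.38, 9.33 and 9.91, PreGM GFP- 9.72, 9.49 and 10.09, PreGM GFP+ 9.61, 9.24 and 10.16 and PreMegE 8.66, 9.89 and 10.43. Its HSC GFP- difference was -0.83 (SE 0.23, adjusted p = 0.0323), and no other comparison was called. The condensin subunits Ncapg and Ncaph were called lower in HSC GFP- and Ncapd2 in GMP GFP+, by -0.75. Cdca5 (sororin), which protects sister chromatid cohesion, varied widely between arrays. It read 8.09, 10.42, 8.10 and 9.08 in LMPP, 9.67, 10.20 and 8.44 in PreGM GFP-, 6.07, 7.79 and 8.24 in HSC GFP- and 6.61, 8.09 and 8.81 in PreMegE. LMPP array 2 and PreGM GFP- array 2, low for most members, were the highest of their groups for Cdca5, and none of its differences was called.

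Of the mitotic kinesins, Kif11 (Eg5), which pushes spindle poles apart, read 8.40, 8.77 and 8.85 in HSC GFP- and 9.83, 9.80, 10.38 and 10.12 in LMPP, and rose by 1.36 (SE 0.36, adjusted p = 0.0484). That call was lost whichever of the 7 arrays of these groups was left out. CLP read 10.47, 10.28 and 10.42, GMP GFP- 9.97, 10.07, 10.16 and 9.85, GMP GFP+ 9.54, 8.85 and 9.51 and PreGM GFP+ 9.24, 9.16 and 9.18. In PreGM GFP- (10.00, 8.35 and 9.79) and PreMegE (7.85, 9.60 and 9.88) a single array was more than 1 log2 unit under the others. Kif4, a motor on chromosome arms, went from 7.33, 7.29 and 7.23 in HSC GFP- to 8.71, 7.92, 8.76 and 9.08 in LMPP, a difference of 1.33 (SE 0.33, adjusted p = 0.0282). Kif23 (MKLP1) bundles the central spindle for cytokinesis together with Racgap1. It gave 9.65, 8.72 and 9.14 in PreGM GFP- and 7.84, 7.81 and 8.17 in PreGM GFP+, the PreGM reporter difference with the lowest adjusted p of the list, -1.23 (SE 0.39, adjusted p = 0.137). CLP read 10.44, 10.33 and 10.16 and PreMegE 7.04, 8.02 and 8.45, the largest distance between group means of any member. In GMP the same gene differed by -0.47 and was not called.

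Tpx2, which activates Aurka on the spindle, read 8.69, 9.05, 9.31 and 9.03 in GMP GFP- and 7.85, 8.03 and 8.45 in GMP GFP+, apart by -0.91 (SE 0.22, adjusted p = 0.0135). It read 8.82, 8.24 and 8.65 in PreGM GFP- and 7.68, 7.56 and 8.50 in PreGM GFP+, which overlapped. The other groups read 9.05, 8.94 and 8.68 in CLP, 8.43, 8.13, 8.80 and 8.56 in LMPP, 7.97, 8.21 and 8.70 in PreMegE and 7.51, 7.65 and 7.81 in HSC GFP-. Tpx2 thus had its highest group mean in GMP GFP- and its lowest in HSC GFP-. Anln (anillin), which organises the contractile ring of cytokinesis, was even between the PreGM groups, at 8.17, 7.21 and 8.17 without and 8.14, 8.08 and 7.86 with reporter signal. In GMP it read 8.81, 8.93, 8.81 and 8.35 without and 8.13, 7.38 and 8.00 with reporter signal, and the difference of -0.89 (SE 0.28, adjusted p = 0.0535) just missed the threshold. It also stood out between the reporter-negative gates, GMP GFP- against PreGM GFP-, with all arrays apart and a difference of 0.87 (SE 0.28, adjusted p = 0.178) that was not called. CLP read 8.87, 8.74 and 8.33, LMPP 7.89, 7.09, 8.13 and 8.02, PreMegE 7.77, 7.74 and 8.47 and HSC GFP- 6.72, 7.04 and 7.57. Racgap1, the partner of Kif23, fell with the reporter in GMP by 0.88 on the log2 scale (SE 0.24, adjusted p = 0.0300).

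Much of the remaining variation was shared between the genes and belonged to single arrays. After each group's mean was removed, the first principal component held 45.5% of the members' variance and the second 13.92%, while the first held 17.02% over all genes. All members but Cenpa and Cdca5 loaded on it with the same sign. Over pairs of members the median correlation within groups was 0.44 (26 arrays), and 1116 of 1225 pairs were above 0; over pairs of all genes the median was 0.03. Differences between groups made up a median of 65.8% of a member's variance, from 30.7% (Ckap2l) to 80.5%, against 36.0% for all genes. These are descriptions, since the genes measured on an array share its hybridisation and extraction as well as its cells. The share of a first component also depends on how many genes are taken and which. The share of the members and that of all genes are therefore not directly comparable.

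Several arrays lay to one side of their group for most members. PreMegE array 1 lay under its group mean for 48 of 50 members, LMPP array 2 for 44 and PreGM GFP- array 2 for 42. PreMegE array 3 and LMPP array 3 lay above theirs for 47 members each and PreGM GFP- array 1 for 46. The mean deviation of PreMegE arrays 1, 2 and 3 was -0.74, -0.12 and 0.14. With PreGM GFP- array 2, PreMegE array 1 and LMPP array 2 left out together, a choice made after seeing the data, 5 members were called lower with the reporter in PreGM (1.78% of all genes in the same fit) and 25 in GMP (5.38%), and 32 were called higher in LMPP than in HSC GFP- (1.64%) and 2 in CLP than in LMPP (0.828%). None of these 3 was a GMP array, so the reporter differences in GMP were the same there and only their estimated spread changed. With any single array left out, the first component still held 41.7% to 49.3% of the members' variance.

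**Figure D4:**
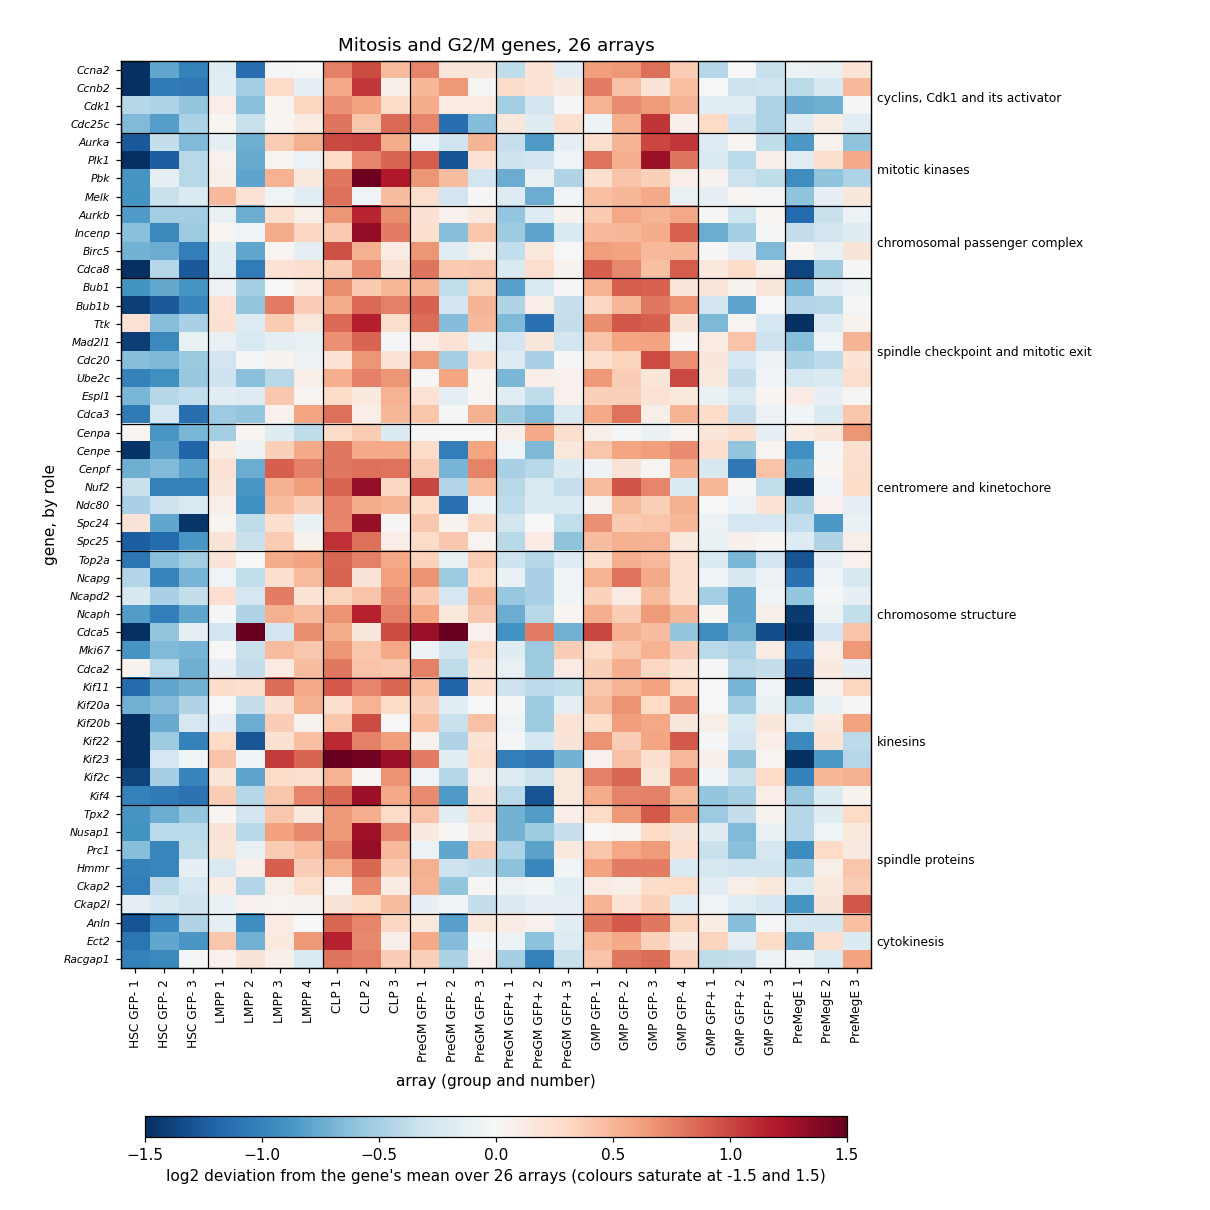
Log2 deviation of 50 mitosis and G2/M genes (rows, by role) from their mean over 26 arrays (columns, by group); red is higher, blue lower, and colours saturate at -1.5 and 1.5. The HSC GFP- columns are blue through nearly all roles and CLP and GMP GFP- red, and PreMegE 1, LMPP 2 and PreGM GFP- 2 are bluer than their neighbours in the same group.

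This array-level deviation was not confined to the members. Across 26 arrays and relative to group means, it correlated with that of 54 other mitotic genes at r = 0.96 (Spearman 0.88), with 28 DNA replication and S phase genes at 0.67 (0.46) and with 15 E2F and DREAM components at 0.85 (0.75). It also followed the first component of all genes outside the list, at 0.87 (0.79), which held 16.89% of their variance, and the interquartile range of the array, at 0.73 (0.65). Marker lists of differentiated cells followed it less, with -0.40 (-0.41) for erythroid and -0.29 (-0.25) for neutrophil genes. All these values rest on the same arrays, a few of which lie far out, and are given as a description. What sets those arrays apart was not tested.

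**Figure D5:**
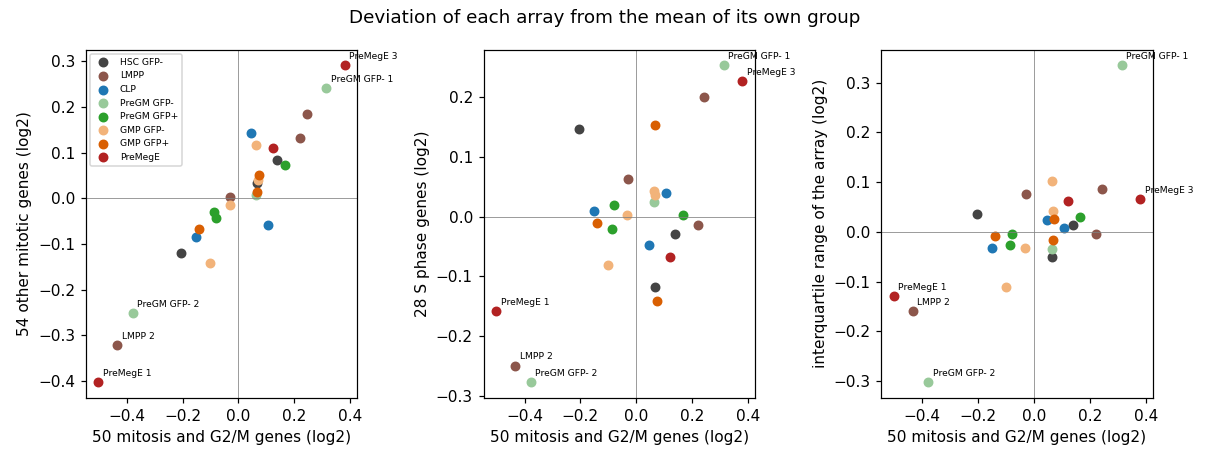
Deviation of each of the 26 arrays from its own group mean, for the 50 mitotic genes (horizontal axis) against 54 other mitotic genes, 28 S phase genes and the interquartile range of the array (vertical axes, log2); colours are groups, and arrays more than 0.3 from their group mean are named. PreMegE 1, LMPP 2 and PreGM GFP- 2 are low on all 3 vertical axes and PreGM GFP- 1 is high.

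The likeness of single members to the list was taken as the correlation of a gene's 8 group means with the mean of the other members. It was lowest for Cenpa (0.32), Cdca5 (0.74), Ckap2l (0.80), Ttk (0.81) and Kif23 (0.82). Within groups, over 26 arrays, Cenpa (-0.07) and Cdca5 (-0.02) were uncorrelated with the rest, while Ttk (0.69) and Kif23 (0.83) were not. Cenpa and Cdca5 were thus least like the list in both ways, though the group means of Cdca5 still largely followed it. Kif23 was among the least alike only in its group means.

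Other genes of the cell cycle, from lists that do not include the members, followed in part. Of 54 other mitotic genes 17 were called lower in HSC GFP- than in the mean of the other groups (2.76% of all genes), such as Cks2, the Cdk-binding subunit, by -1.45 (SE 0.15, adjusted p = 7.61e-07). In GMP GFP+ 9 of the 54 were called lower than in GMP GFP- (4.05% of all genes), among them the kinesins Kif14, by -1.22 (SE 0.23, adjusted p = 0.00178), and Kif15, by -1.20 (SE 0.35, adjusted p = 0.0393). Kif14 was also called in the test of the reporter difference in GMP against that in PreGM, at -1.53 (SE 0.34, adjusted p = 0.0306). In PreGM, 3 of the 54 (Cenpi, Cenpm and Tacc3) were called lower in reporter-positive cells (1.14% of all genes), Tacc3, a spindle protein, by -0.72 (SE 0.14, adjusted p = 0.00268). DNA replication and S phase genes were called lower in GMP GFP+ for 14 of 28 (4.05% of all genes), such as Mcm3 of the replicative helicase, by -1.12 (SE 0.25, adjusted p = 0.00662), and Fen1, the flap endonuclease, by -1.05 (SE 0.15, adjusted p = 6.31e-05). In HSC GFP- 9 of 28 were called lower (2.76%). Between CLP and LMPP 0 of 28 were called higher (0.828%) or lower (0.747%) by limma, while the mean deviation was 0.25 ± 0.04 (n = 3) in CLP and 0.47 ± 0.06 (n = 4) in GMP GFP-, the reverse of their order for mitotic genes.

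Foxm1, the G2 activator named above, averaged 7.48 ± 0.13 in HSC GFP- (n = 3), 8.48 ± 0.54 in CLP (n = 3), 8.21 ± 0.42 in GMP GFP- (n = 4) and 7.52 ± 0.71 in GMP GFP+ (n = 3), and was called neither in the F test nor in any comparison between groups. Mybl2 averaged 7.36 ± 0.20 in HSC GFP- and 8.48 ± 0.27 in GMP GFP- and was called in the F test only. Cdkn1c, the cyclin-dependent kinase inhibitor p57 of quiescent stem cells, ran the other way, at 7.33 ± 0.54 in HSC GFP- against 6.56 ± 0.07 in LMPP, a level under the median signal, with a difference of -0.78 (SE 0.17, adjusted p = 0.012) between LMPP and HSC GFP-. Cdk6, a kinase of G1 progression, was lower in HSC GFP- than in the mean of the others by -0.95 (SE 0.13, adjusted p = 4.13e-05). The D-type cyclins, which start the cycle in G1, did not move together: Ccnd3 was higher in CLP than in LMPP by 0.96 (SE 0.12, adjusted p = 4.08e-05), Ccnd2 differed by -0.60 (SE 0.14, adjusted p = 0.00755) with the reporter in GMP and was higher in HSC GFP- than elsewhere by 0.43 (SE 0.11, adjusted p = 0.0174), and Ccnd1 averaged 8.02 ± 0.40 in HSC GFP- and 6.94 ± 0.29 in GMP GFP+ and was not called in either of these comparisons.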

How the data were processed

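The 26 samples are Mouse Gene 1.1 ST arrays, 1 per sample. The values are log2 signals per probe set as deposited by the authors, and the submitters' processing notes name RMA and oligo without versions. The log base is not stated and was taken as 2, which RMA uses. Of 35556 probe sets, 21789 name 1 gene in the annotation used, that of the 1.0 ST array, 1621 name several and 12146 none. Only the first kind was kept, with the brightest probe set of each symbol, leaving 19938 genes. Top2a is the only member with more than 1.

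A linear model with 1 coefficient per group was fitted to all 26 arrays and all genes in limma 3.58.1 (R 4.3.3). P-values of its moderated tests were adjusted over all genes (Benjamini-Hochberg), and adjusted values under 0.05 count as calls. Principal components and correlations were computed on values less their group mean (numpy 2.4.6, pandas 2.3.3). The analysis was tested on simulated data with noise drawn independently for each gene and array. Such data lack the variation that the members share, so they cannot show how counts of called members behave.

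The members, their roles and the other gene lists were chosen with earlier results of these data known. Array values are given for lead genes of each role and for up to 4 called members with the largest difference per comparison and direction. Kif23 and Cdca5 were added after their values were seen. Genes outside the list are named from the 4 called ones with the largest difference per list and comparison, or are regulators and D-type cyclins named beforehand. Listed genes with no probe set of their own were not analysed here. Promoter sequences are RefSeq's; Pbk, Incenp, Ccna2, Spc24, Kif20a, Cdca2, Cdc25c, Tpx2 and Aurkb are not among them. The alternatives tried were the replicate number as a block, centring or quantile-normalizing the arrays again, the mean of probe sets, a filter on low signal, array quality weights, the first residual component of other genes as a covariate, a fit of only the groups compared, and leaving out arrays. The number of arrays limits the precision.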

Additional observations from a re-analysis of the deposited data

Results flagged for a closer look

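Of 102 sets of 4 arrays checked (the 50 members and their mean in LMPP and in GMP GFP-), 6 held an array set apart from its 3 companions by Dixon's criterion at the 95% level. Chance alone flags about 1 in 20 such sets.

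LMPP array 2 was the low one for Ccna2 (7.65, the others from 8.62 to 8.79), Kif22 (6.03, the others from 7.54 to 7.76) and Kif2c (6.14, the others from 7.11 to 7.21). The same array lay under its group mean for 44 of 50 members. LMPP array 1 was low for Ckap2l (7.19, the others from 7.35 to 7.37). In GMP GFP-, array 3 was low for Kif2c (7.11, the others from 7.68 to 7.79) and array 4 was high for Incenp (9.32, the others from 8.93 to 8.99). Without that array the difference of Incenp between GMP GFP+ and GMP GFP- was -0.94, with an adjusted p of 0.028 in limma, against a range of 4.46e-04 to 0.0587 over all settings.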

How the results depend on the processing

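The direction of the median member difference was kept under all settings for every comparison but PreMegE against PreGM GFP+ and PreGM GFP- against LMPP. With single arrays left out the first ran from -0.13 to 0.29 and the second from -0.12 to 0.20. The first was -0.00072 without PreGM GFP+ array 1, -0.01 without PreGM GFP+ array 2, -0.02 without PreMegE array 2 and -0.13 without PreMegE array 3. The second was -0.12 without PreGM GFP- array 1, -0.01 without PreGM GFP- array 3 and -0.08 without LMPP array 2. Numbers of called members moved more, and only in the direction of the main result. For the reporter in GMP, 10 in the main analysis, it was 5 after quantile normalization, 22 with array quality weights, 24 with the residual component as covariate, 26 when only the 2 groups were fitted and 25 with 3 arrays left out together. For LMPP against HSC GFP-, 9 in the main analysis, these were 15, 27, 23, 5 and 32. For CLP against LMPP, 4 in the main analysis (0.828% of all genes), they were 7 with the covariate (1.12%). They were 1 when only the 2 groups were fitted (0.346%) and 2 with the 3 arrays left out (0.828%). For the reporter in PreGM, 0 in the main analysis, they were 10 with weights (3.32% of all genes called lower). They were 1 with the covariate (1.43%) and 5 with the 3 arrays left out (1.78%). For GMP GFP- against PreGM GFP-, also 0, they were 3 with weights (3.53% of all genes called higher) and 2 with the covariate (1.15%). Over all genes the share called lower in the reporter comparison in GMP, 4.05% in the main analysis, was 2.53%, 7.31%, 5.27%, 5.32% and 5.38% under the same 5 settings, and the share called higher in LMPP than in HSC GFP-, 1.03%, was 1.12%, 1.95%, 1.44%, 0.537% and 1.64%. The residual component was taken after group means were removed. As a covariate it therefore leaves the differences as they are and changes only their estimated spread. None of the 3 arrays left out together was a GMP array, so that setting too left the reporter differences in GMP as they were. The cause of the other changes was not tested.

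With single arrays left out, the number called ranged from 0 to 1 for the reporter in PreGM, 3 to 7 for the reporter in GMP, 0 to 1 for the difference between these, 0 to 1 for GMP GFP- against PreGM GFP-, 3 to 20 for LMPP against HSC GFP-, 0 to 4 for CLP against LMPP, 15 to 38 for HSC GFP- against the mean of the others and 33 to 41 in the F test. It stayed at 0 for GMP GFP+ against PreGM GFP+, PreMegE against PreGM GFP+ and PreGM GFP- against LMPP. Over all genes, the share called lower in these fits ran from 0.672% to 1.49% for the reporter in PreGM. It ran from 2.45% to 3.75% for the reporter in GMP and from 1.77% to 3.32% for HSC GFP-. The share called higher ran from 0.652% to 1.08% for LMPP against HSC GFP- and from 0.542% to 1.05% for CLP against LMPP. Of the genes called, 10 of 34 in HSC GFP-, 2 of 9 in LMPP against HSC GFP-, 0 of 10 for the reporter in GMP and 0 of 4 in CLP kept their call whichever array was left out.

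Over 84 pairs of arrays with the same replicate number, the correlation of deviations from the group means had a median of 0.03. It ran from -0.26 to 0.33, the highest between LMPP array 2 and PreGM GFP- array 2, with 18 above 0.1. Pairs of different numbers were not compared, so these values cannot decide whether the number pairs arrays. The main fit did not pair them. With the replicate number as a block the counts were 0 for the reporter in PreGM (1.13% of all genes called lower) and 9 for the reporter in GMP (3.98%). They were 9 for LMPP against HSC GFP- (0.993% called higher) and 4 for CLP against LMPP (0.722%). For HSC GFP- the count was 32 (2.85% called lower) and in the F test 38, and none was over 1.5 times away. Differences from groups under the median signal, and the 3 or 4 arrays per group, limit how small a change can be seen.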

Other observations

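CLP and GMP GFP- held the highest mitotic levels, and their S phase genes stood in the opposite order. The mean deviation of the 28 DNA replication and S phase genes was 0.20 to 0.29 over the 3 CLP arrays and 0.39 to 0.51 over the 4 GMP GFP- arrays, without overlap, whereas for the 50 mitotic genes CLP spanned 0.48 to 0.74 and GMP GFP- 0.37 to 0.54. This difference was not tested. E2f8, an E2F-family repressor that is itself a cell cycle gene, was lower in HSC GFP- than in the mean of the other groups by -1.80 (SE 0.19, adjusted p = 1.47e-06 in limma), yet averaged 10.36 ± 0.07 (SD, n = 3) in GMP GFP+ and 10.02 ± 0.17 (n = 4) in GMP GFP-.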
